A study of Mus musculus with 4 samples.

Results

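The Id family (Id1, Id2, Id3 and Id4) was followed in single cells sorted from the testes of 4 wk old mice. The members were chosen by name, and all 4 have a row in the count tables, of 26041 genes in all. Every mouse carried a tamoxifen-inducible Cre and tdTomato inserted at Eomes, so that cells were sorted by fluorescence from that locus, with a gate set on littermates without tdTomato. One group was Plzf +/+ and the other Plzf lu/lu, which is homozygous for the luxoid mutation of Plzf (gene symbol Zbtb16), a zinc finger transcription factor needed to keep spermatogonial stem cells. Plzf +/+ cells came from plates 1, 2 and 4 (317, 303 and 277 cells) and Plzf lu/lu cells from plates 3 and 4 (314 and 38 cells), 1249 cells in 5 libraries. The labels name no animals, so p-values rest on the spread between these libraries, which may be technical. edgeR pools that spread over genes, so a p-value does not measure the spread of its own gene alone. Outside plate 4, plate and genotype cannot be told apart.

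ID proteins are helix-loop-helix proteins without a basic region. They pair with E proteins such as TCF3 and TCF12 and keep them, and the tissue-restricted partners of E proteins, off DNA. Id genes are classic targets of BMP signaling through SMAD proteins. In the testis, Id4 is known as a marker of spermatogonial stem cells, and elsewhere Id2 is needed for natural killer cells, a cell type that also uses Eomes.

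The mutated gene was reported first as a check of the labels. Zbtb16 was at 76.7, 51.8 and 72.3 CPM (UMI counts scaled to a common library total, here by TMM, edgeR's trimmed-mean normalization) in the Plzf +/+ libraries and at 18.3 and 12.1 in the Plzf lu/lu libraries, and was lower in Plzf lu/lu by edgeR's quasi-likelihood test (log2 fold change -1.97 ± 0.30 SE, adjusted p = 0.0319). That call was lost when any library but Plzf +/+ plate 1 was left out (adjusted p from 0.0984 to 0.346, edgeR). Libraries held 254514 to 2608702 UMIs (unique molecular identifiers, each standing for 1 captured transcript), and the median cell held 5061 to 6365 UMIs. Cell barcodes were those of the wells, so 358 were found on more than 1 plate, and none was shared within plate 4. On plate 4, 5 cells tabled as Plzf +/+ sat in wells that the labels give to Plzf lu/lu.

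In RefSeq (build GRCm38.p6), Id1 lies on chromosome 2 (152736251 to 152737410), Id2 on chromosome 12 (25093799 to 25096092), Id3 on chromosome 4 (136143822 to 136145392) and Id4 on chromosome 13 (48261116 to 48266028). The promoters of the members that carried most of the UMIs are shown because their sequences differ in the elements that SMAD proteins are known to bind. Each window runs from 250 bases before to 50 bases after the start of the gene, 5′ to 3′ on the strand of the gene. Capitals mark GGCGCC and CAGAC on either strand.
Id3, chr4:136143572-136143871, plus strand: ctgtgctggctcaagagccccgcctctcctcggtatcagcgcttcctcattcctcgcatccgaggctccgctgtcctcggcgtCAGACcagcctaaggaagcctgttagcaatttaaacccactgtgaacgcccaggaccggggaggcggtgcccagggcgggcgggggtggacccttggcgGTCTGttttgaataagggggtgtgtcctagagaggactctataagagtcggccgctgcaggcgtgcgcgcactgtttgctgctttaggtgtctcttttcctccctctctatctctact
Id4, chr13:48260866-48261165, plus strand: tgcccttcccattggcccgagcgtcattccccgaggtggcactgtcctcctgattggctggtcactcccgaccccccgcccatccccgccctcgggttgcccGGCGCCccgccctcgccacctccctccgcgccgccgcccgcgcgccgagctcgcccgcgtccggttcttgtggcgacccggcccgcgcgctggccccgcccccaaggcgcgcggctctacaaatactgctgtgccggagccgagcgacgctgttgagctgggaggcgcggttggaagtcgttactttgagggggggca
The Id3 window held 2 CAGAC and 0 GGCGCC, and the Id4 window 1 GGCGCC and 0 CAGAC. The Id2 window held 1 GGCGCC, 0 CAGAC and 1 CANNTG (the E-box read by bHLH factors), and the Id3 and Id4 windows held 0 CANNTG. Of 32851 RefSeq promoter windows of the same length, 11.9% held GGCGCC, 49.6% CAGAC, 16.2% at least 2 CAGAC and 72.3% CANNTG. These matches describe the letters of the windows alone.

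The 4 members differed widely in how often they were seen. Id4 gave 856 UMIs in 456 of 1249 cells, Id3 176 UMIs in 126 cells, Id2 51 UMIs in 27 cells and Id1 21 UMIs in 20 cells. UMIs were read from the 3′ end of transcripts and therefore do not scale with gene length. On this scale Id4 stood above Id3 and Id3 above both Id1 and Id2 in each Plzf +/+ library, while Id1 and Id2 were not in the same order on every plate.

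**Figure D1:**
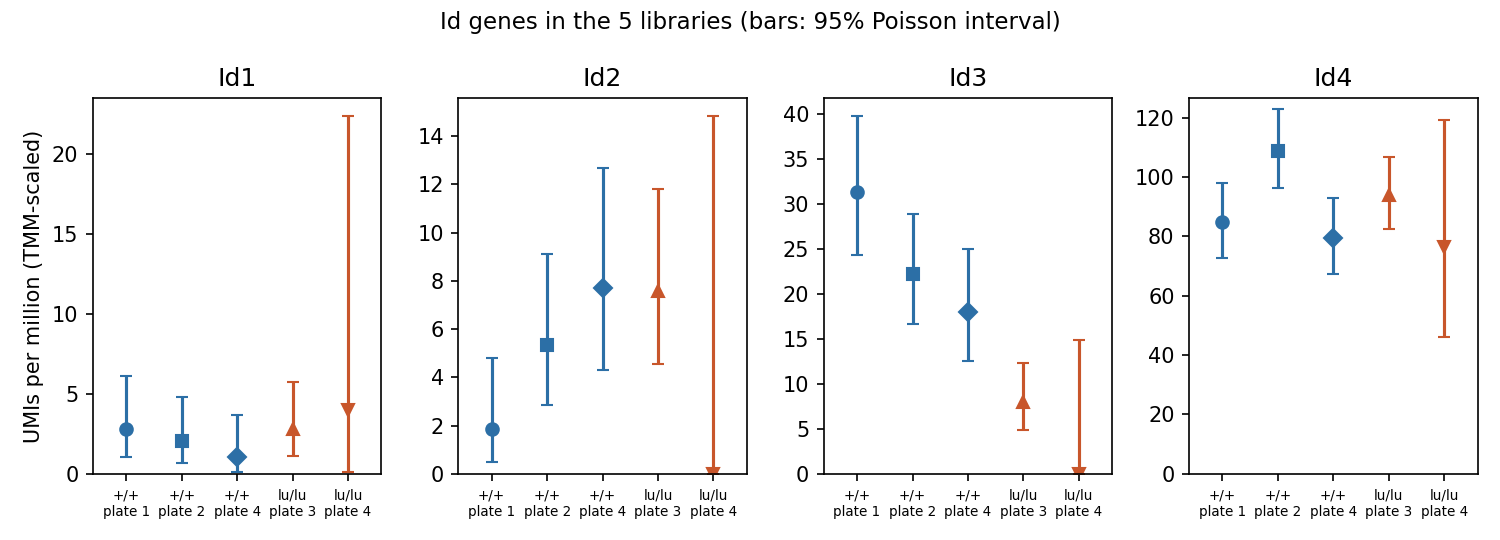
Each point is 1 library and gives the level in CPM (TMM-scaled, vertical axis, scales differ between panels) of 1 Id gene, in blue for Plzf +/+ and orange for Plzf lu/lu. Bars are 95% Poisson intervals and cover counting error only. Id3 sits between 17.9 and 31.3 in Plzf +/+ and at 7.97 and 0 in Plzf lu/lu, while the Id4 points of the genotypes overlap.

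Id4 was at 84.7, 109 and 79.5 CPM in Plzf +/+ plates 1, 2 and 4 and at 94.0 and 76.4 in Plzf lu/lu plates 3 and 4. The genotypes overlapped. The difference was -0.05 ± 0.21 SE on the log2 scale (adjusted p = 0.999, edgeR).

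Id3 was at 31.3, 22.2 and 17.9 CPM in Plzf +/+ plates 1, 2 and 4, and at 7.97 in Plzf lu/lu plate 3. In Plzf lu/lu plate 4 no Id3 UMI was found, where 3 UMIs would be a level of 12.1 CPM. The genotypes did not overlap, with 67, 54 and 35 UMIs against 20 and 0. Of all 13728 genes tested, 16% were lower and 18.5% higher in Plzf lu/lu with no overlap. The log2 difference was -1.83 ± 0.53 SE, with an unadjusted p of 0.00849, and did not pass the test over all genes (adjusted p = 0.175, edgeR). No Id gene passed in that fit, against 0.816% of 13728 genes tested.

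Whether Id3 passed depended on which cells, genes and libraries entered. It passed when every gene with at least 1 UMI was tested (-1.86, adjusted p = 0.0041, edgeR), where 2.27% of genes passed. It also passed without the clusters named as spermatids and Sertoli cells (-2.17, adjusted p = 0.000223, edgeR; 15% of genes passed), without cells of more than 4 times the median UMIs (-1.95, adjusted p = 0.0284, edgeR; 5.02%) and without Plzf +/+ plate 1 (-1.51, adjusted p = 0.0337, edgeR; 10.2%). It did not pass in the other alternatives, among them DESeq2 (-2.03, adjusted p = 0.326) and cells with UMIs of Dazl, a germ cell gene, alone (-2.02, adjusted p = 0.173, edgeR). The sign was negative in each of them.

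Id2 was at 1.87, 5.34 and 7.69 CPM in the Plzf +/+ libraries and at 7.57 and 0 in the Plzf lu/lu libraries, which overlapped. The log2 difference was 0.32 ± 0.77 SE (adjusted p = 0.95, edgeR), whose sign is opposite to that of the means of 4.97 ± 2.93 (SD, n = 3) and 3.79 ± 5.35 (SD, n = 2) CPM. Cells with immune markers, described further on, held 26 of 32 Plzf +/+ and 6 of 19 Plzf lu/lu UMIs of Id2. Without them 6 and 13 UMIs were left, or 0.927 and 4.58 CPM without TMM, with 13 of the 13 in Plzf lu/lu plate 3, and Id2 was below the filter on low counts. Id1, at 2.81, 2.05, 1.03, 2.79 and 4.02 CPM in the same order, rested on 6, 5, 2, 7 and 1 UMIs and was below the filter on low counts.

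The same picture was sought in the share of cells with at least 1 UMI. Detection rises with depth. Cells were therefore compared at an equal 2000 UMIs, drawn at random from those of each cell, a depth that 834 Plzf +/+ and 333 Plzf lu/lu cells reached. At that depth Id4 was found in 17.6%, 19.2% and 16.3% of Plzf +/+ cells and in 13.8% of the cells of both Plzf lu/lu libraries, or 17.7% ± 1.44 (SD, n = 3) against 13.8% ± 0.0212 (SD, n = 2). With all UMIs these means were 37.3% ± 4.58 and 34.3% ± 0.127. Id3 was found at 2000 UMIs in 6.19%, 3.26% and 3.59% of Plzf +/+ cells, in 1.32% of Plzf lu/lu plate 3 cells, and in 0 of 29 cells of plate 4, where a limit of 3 cells is 10.3% and the exact interval reaches 11.9%. With all UMIs, Id3 was found in 14.2%, 11.6% and 10.5% of Plzf +/+ cells and in 5.41% of Plzf lu/lu plate 3 cells (95% exact Clopper-Pearson interval 3.19 to 8.53%). It was found in 0 of 38 cells of plate 4, where a limit of 3 cells is 7.89% and the exact interval reaches 9.25%. An exact permutation test of 3 against 2 libraries cannot give a p under 0.1, and none was run on the shares.

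**Figure D2:**
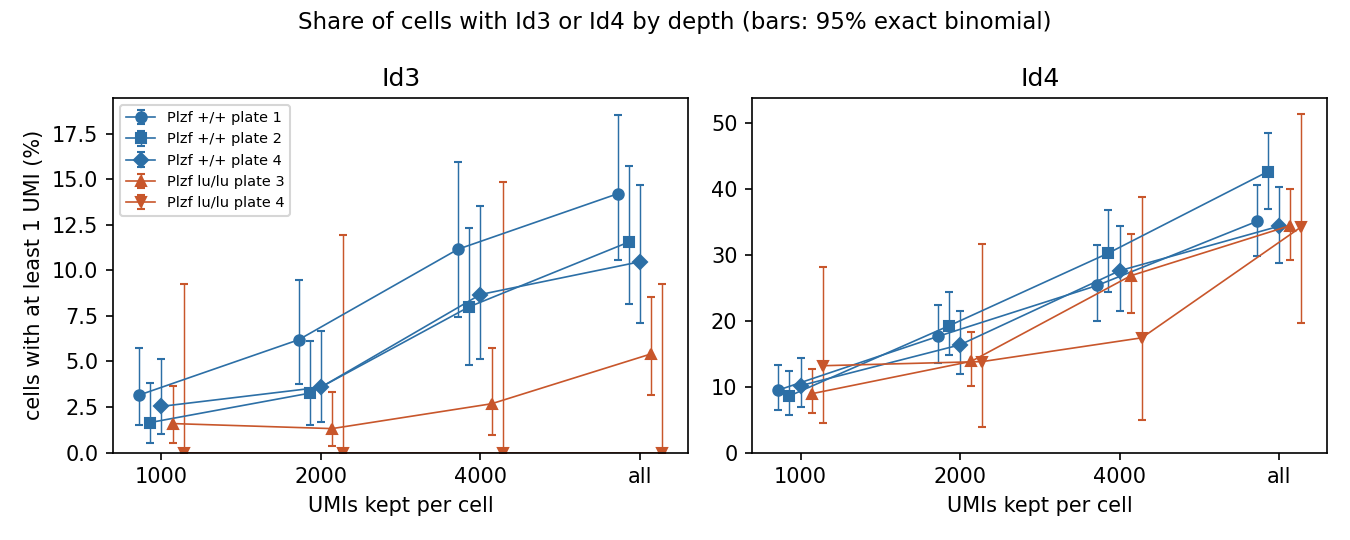
The percent of cells with at least 1 UMI of Id3 (left) or Id4 (right) in each library is plotted against the number of UMIs kept per cell, with 95% exact binomial bars. Lines join the values of 1 library. The Id3 points of Plzf +/+ reach 10.5 to 14.2% with all UMIs and those of Plzf lu/lu 5.41% and 0%, while the Id4 intervals of the genotypes overlap at each depth.

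In cells with few or many UMIs the order was kept for Id3. Among cells of 4000 to 8000 UMIs, Id3 was found in 48 of 389 Plzf +/+ cells (12.3%) and 7 of 113 Plzf lu/lu cells (6.19%). Among cells of at least 8000 UMIs the shares were 18.1% of 265 and 7.46% of 134 cells. For Id4 the shares of Plzf +/+ and Plzf lu/lu cells were 19.3% and 16.2% below 4000 UMIs, 38.8% and 30.1% from 4000 to 8000, and 51.7% and 52.2% from 8000.

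A cell that had an Id gene usually had 1 UMI of it. A single UMI was all that was found in 55.9% of the cells with Id4, 71.4% of those with Id3 and 95% of those with Id1. The highest Id4 count was 19, in a Plzf lu/lu plate 3 cell, and the highest in Plzf +/+ was 13. At 2000 UMIs the variance of Id4 over cells was 1.22 times its mean in Plzf +/+ and 1.18 times in Plzf lu/lu, and that of Id3 was 1.06 and 0.991 times its mean.

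Id genes were seldom found together. With all UMIs, 468 of 1249 cells had 1 Id gene, 76 had 2, 3 had 3 and 0 had all 4. Id3 and Id4 shared 50 Plzf +/+ cells with all UMIs, where the product of their shares gives 40.7. The order of the shares changed with depth. At 2000 UMIs, 5 of 37 Plzf +/+ cells with Id3 also had Id4 (13.5%, 95% exact interval 4.54 to 28.8%), against 17.9% of those without Id3. With 1 library left out the difference ran from -8.03 (without plate 4) to -1.21 points (without plate 1). At 4000 UMIs the share was higher with Id3 (32.8% against 27.1%), as it was with all UMIs (45.9% against 36.2%). Of the Plzf lu/lu cells with Id3, 1 of 4 cells with Id3 had Id4. For the other 5 pairs at most 1 cell in all held both genes at this depth. Over 834 Plzf +/+ cells at 2000 UMIs, Pearson's r between Id3 and Id4 was -0.0057, as a description of sparse counts.

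Gfra1 encodes the GDNF co-receptor of undifferentiated spermatogonia. At 2000 UMIs, Id4 was found in 22.6%, 27.0% and 22.4% of the Plzf +/+ cells with a Gfra1 UMI on plates 1, 2 and 4. In cells without Gfra1 the shares were 14.9%, 13.7% and 13.7%. The same order held in Plzf lu/lu plate 3 (20.4% against 12.4%) and in plate 4, where it rested on 2 of 6 and 2 of 23 cells. Id3 was found in 9.43%, 3.48% and 6.58% of Plzf +/+ cells with Gfra1 on plates 1, 2 and 4 and in 4.48%, 3.11% and 2.29% of those without. In UMIs plate 2 went the other way, at 19.0 CPM with Gfra1 and 24.9 without.

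Summed by library, the thinned cells with Gfra1 held Id4 at 139, 204 and 146 CPM in Plzf +/+ and those without at 101, 114 and 96.2. Each library was higher with Gfra1. The log2 difference was 0.64 ± 0.25 SE (adjusted p = 0.151, edgeR, library as a block), and Id4 was the only Id gene past the filter on low counts. It did not pass in this draw of UMIs, where 3.68% of genes did. In this fit of thinned cells the spread was pooled over genes almost wholly, so its p-values say little on the spread of 1 gene between libraries. The difference in Plzf lu/lu was 0.67 ± 0.50 SE (adjusted p = 0.823, edgeR), with 0.827% of genes past the test. The difference between the genotypes was 0.03 ± 0.54 SE (adjusted p = 0.999, edgeR), with 0.0459% past it.

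This value moved with the draw, and 20 draws were made after that was seen. Over 20 draws of 2000 UMIs per cell, the Plzf +/+ difference of Id4 had a median of 0.67 and ran from 0.22 to 1.31, above 0 in 20 draws and past the test in 6. The Plzf lu/lu difference ran from -0.49 to 1.01, with 14 draws above 0 and 0 past the test. The difference between the genotypes had a median of -0.29 and ran from -1.54 to 0.28, with 8 draws above 0 and 0 past the test. A draw with the second seed, the highest of them, gave 1.31 in Plzf +/+ (adjusted p = 0.000101, edgeR; 1.5% of genes passed). With 4000 UMIs kept, it was 1.10 (adjusted p = 8.65e-05, edgeR; 7.76% of genes passed). With cells split by any Gfra1 UMI it was 1.45 (adjusted p = 0.0054, edgeR; 0.310% of genes passed), but that split also separates deep from shallow cells.

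**Figure D3:**
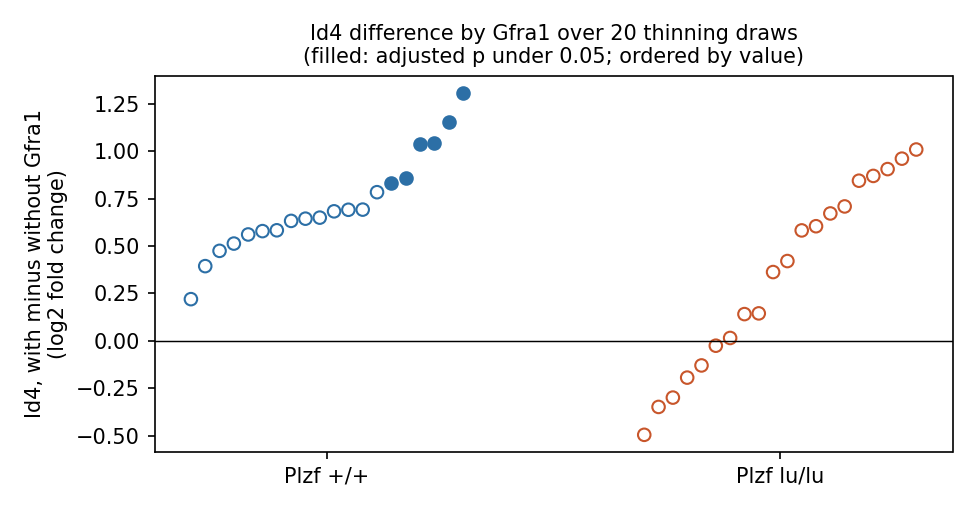
Each circle is 1 random draw of 2000 UMIs per cell and gives the log2 difference of Id4 between cells with and without a Gfra1 UMI (vertical axis) for Plzf +/+ (blue) and Plzf lu/lu (orange), ordered by value. Filled circles had an adjusted p under 0.05: 6 of 20 draws in Plzf +/+ and 0 of 20 in Plzf lu/lu.

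To use more UMIs, the cells were kept in the same Gfra1 classes and all of their UMIs were summed, an alternative added after the data were seen. Id4 was then at 117, 165 and 102 CPM with Gfra1 and 76.2, 91.2 and 75.3 without in Plzf +/+. The Plzf lu/lu libraries held it at 113 and 95.8 with Gfra1 and 91.7 and 58.0 without. It was higher with Gfra1 in 5 of 5 libraries, by 0.65 ± 0.18 SE in Plzf +/+ (adjusted p = 0.108, edgeR; 0.702% of genes passed) and 0.39 ± 0.29 SE in Plzf lu/lu (0.107% of genes passed). Neither passed. Id3 was at 42.4, 23.9 and 28.9 with Gfra1 and 28.1, 23.6 and 14.2 without in Plzf +/+, a difference of 0.52 ± 0.35 SE that did not pass (adjusted p = 0.531, edgeR).

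**Figure D4:**
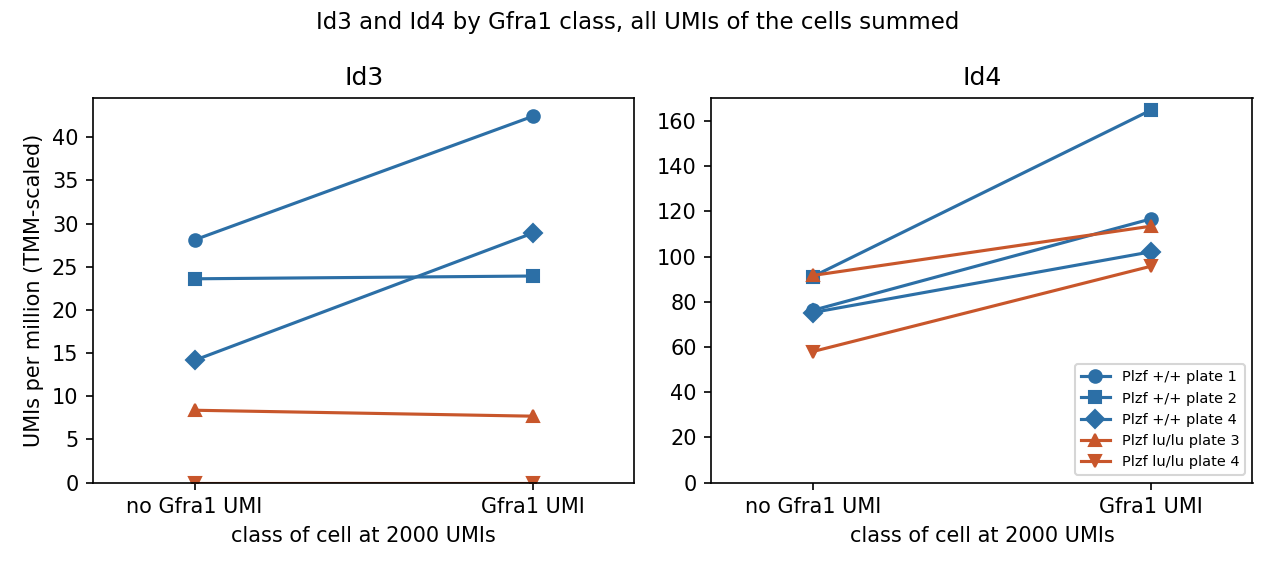
CPM (TMM-scaled) of Id3 (left) and Id4 (right) are shown for cells without and with a Gfra1 UMI at 2000 UMIs, with all UMIs of those cells summed, and lines join the classes of 1 library. Each Id4 line rises toward the Gfra1 class, and the Id3 points of Plzf lu/lu plate 3 lie at 7.69 and 8.38, below the Plzf +/+ points of 14.2 to 42.4, while the zeros of plate 4 rest on few UMIs.

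Gfra1 cells made up a smaller share of Plzf lu/lu than of Plzf +/+ cells at 2000 UMIs (19.2% ± 2.07, SD, n = 2, against 35.5% ± 5.76, n = 3), so the genotypes were also compared within each class. With all UMIs summed, Id3 was at 7.69 and 0 CPM in Plzf lu/lu cells with Gfra1. In plate 4, 3 UMIs would be 47.9 CPM with Gfra1, above each Plzf +/+ level of that class, so no difference was detectable there at this depth. Without Gfra1 the limit was 17.4 CPM, with 1 of 3 Plzf +/+ libraries below it. The log2 difference was -2.23 ± 0.71 SE (adjusted p = 0.165, edgeR; 0.987% of genes passed). In cells without Gfra1, Id3 was at 8.38 and 0 in Plzf lu/lu and the difference was -1.61 ± 0.60 SE (adjusted p = 0.446, edgeR; 0.126% of genes passed). Neither passed, and with 4000 UMIs kept Id3 passed in cells with Gfra1 (-3.23, adjusted p = 0.0487, edgeR; 3.22% of genes passed). At 2000 UMIs Id4 differed by -0.24 ± 0.43 SE with Gfra1 (1.91% of genes passed) and -0.29 ± 0.32 SE without (1.83%), and did not pass in either class. With 1 library left out these ran from -0.43 (without Plzf lu/lu plate 3) to -0.025 (without Plzf +/+ plate 2) with Gfra1, and from -1.05 (without Plzf lu/lu plate 3) to -0.18 (without Plzf lu/lu plate 4) without. Over the 20 draws the medians were -0.42 with Gfra1 (from -1.50 to 0.23, above 0 in 1 draw) and -0.16 without (from -0.45 to 0.64, above 0 in 4), with 0 draws past the test.

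Most Id2 UMIs came from a small number of cells with markers of immune cells. Marker counts per cell were used to set apart 14 cells with at least 3 markers of T, NK and macrophage cells, and 75 others with at least 5 of 11 Sertoli cell markers. These classes were chosen after values were seen, and no test was made between them. The 14 immune-marked cells held 32 of 51 Id2 UMIs (62.7%), the Sertoli-marked cells 11 and the remaining 1160 cells 8. By cells, Id2 was found in 8 immune-marked, 11 Sertoli-marked and 8 other cells. The Sertoli-marked cells also held 386 UMIs of markers of undifferentiated spermatogonia, against 3234 of Sertoli cell markers. In the immune-marked class 3 cells held 24 of the 32 Id2 UMIs and 6 cells held none, so its level rests on few cells. Id2 was thus at 501 CPM (here and for clusters without TMM) in immune-marked cells (95% Poisson interval 343 to 707), 12.1 in Sertoli-marked cells and 0.953 in the rest.

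The immune-marked cells had UMIs of 8 of 8 T and NK markers, 291 in sum and 5 to 61 per cell, and of 0 of 4 macrophage markers. Their median depth was 1629 UMIs. Dazl was found in 1 of the 14, a Plzf lu/lu plate 3 cell with 24187 UMIs, 6 Id2 UMIs, 6 Id4 UMIs and 31 Dazl UMIs. An Eomes UMI was found in 2 of them, both from Plzf +/+ plate 2. The highest Id2 count, 11, was in an immune-marked Plzf +/+ plate 4 cell of 1383 UMIs. The 11 such Plzf +/+ cells had 0 UMIs of Id3 and Id4 among 35985 in all. Of these UMIs, 18472 came from 1 plate 1 cell with 3 immune markers and 0 Id2 UMIs. That cell and the one with Dazl held most UMIs of the class, the total behind the 501 CPM of Id2. Among those 35985 UMIs, 3 UMIs would be 83.4 CPM and the 95% Poisson interval reaches 102 CPM. These lie on either side of the Id4 level of 96.1 in unmarked Plzf +/+ cells.

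**Figure D5:**
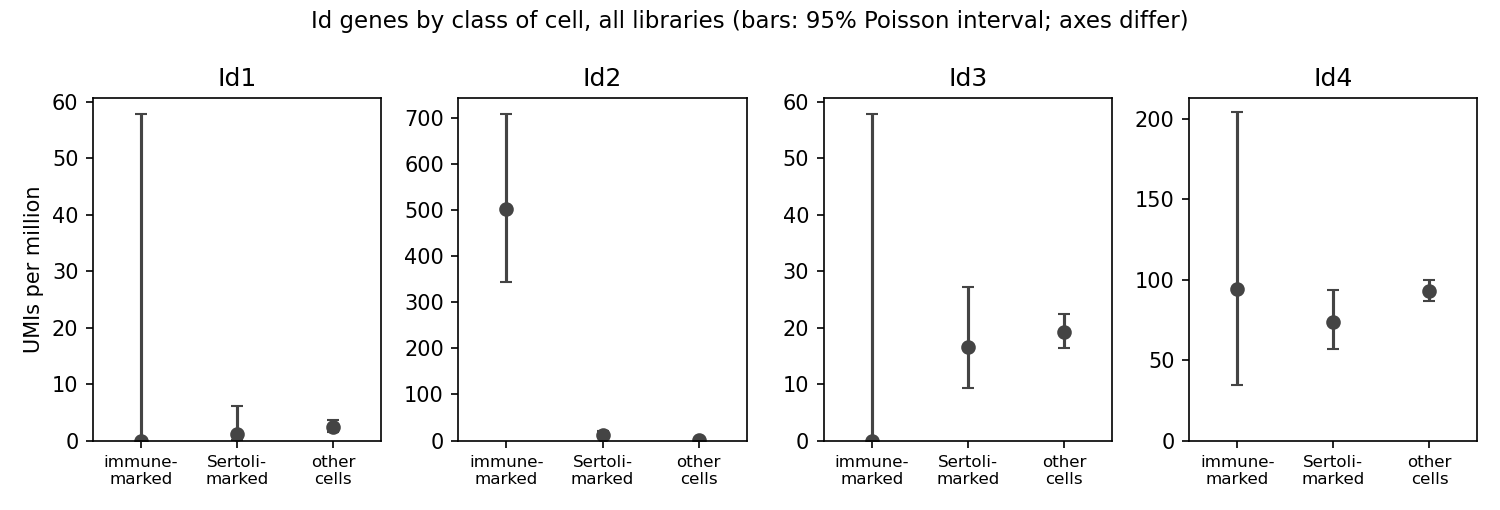
CPM of each Id gene are shown for 14 immune-marked, 75 Sertoli-marked and 1160 other cells of all libraries, with 95% Poisson bars and a vertical scale for each panel. Id2 stands at 501 in immune-marked cells against 12.1 and 0.953 in the other classes, while the intervals of Id3 and Id4 overlap across classes.

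Id1 showed no such class, with 20 of 21 UMIs in the 1160 unmarked cells. Id3 and Id4 had 91.5% of their UMIs there. The genotype difference of Id3 was -1.89 without the immune-marked cells (adjusted p = 0.191, edgeR) and -2.22 without both marked classes (adjusted p = 0.0946, edgeR). Over all cells it was -1.83. The part of the marked cells in it was not tested.

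Cells were also clustered without the Id genes, which gave 7 clusters. Over both genotypes, Id4 was at 158 CPM in the 263 cells of cluster 1, called undifferentiated spermatogonia-like from its markers. It was between 64.1 and 87.8 in clusters 2 to 6. Of these, cluster 4 was also high in the undifferentiated spermatogonia markers Gfra1, Zbtb16, Ret, Sall4, Ccnd2 and Lhx1. Cluster 3 was high in Etv5, Ret, Lin28a and Nanos3. Cluster 1 held 258 Plzf +/+ and 5 Plzf lu/lu cells. Id4 was at 32.2 in the 30 Sertoli cells-like cells of cluster 7. Clusters differed in their share of each genotype, so Id3 is given by genotype. In Plzf +/+ cells Id3 was at 31.0 CPM in cluster 1 (258 cells), 34.2 and 30.8 in the unnamed clusters 4 and 6 (172 and 142 cells), and 13.8, 7.17 and 13.5 in clusters 2, 3 and 5 (102, 77 and 137 cells). Cluster 7 held 1 Id3 UMI in 9 Plzf +/+ cells. Plzf lu/lu cells held 6 and 4 Id3 UMIs in clusters 2 and 3 (126 and 120 cells), 0 in clusters 1 and 4 (5 and 13 cells) and 4, 3 and 3 in clusters 5, 6 and 7 (41, 26 and 21 cells). Cluster 3 was led by predicted genes such as Gm21738, Gm10801 and Gm10800, had a median depth of 0.637 times that of its libraries, and held 120 of 352 Plzf lu/lu and 77 of 897 Plzf +/+ cells. Its part in the genotype difference of Id3 was not tested. In cluster 2, led by Ly6e, B2m and Stra8 and also high in the differentiating spermatogonia markers Sohlh1, Sohlh2 and Ccnd3 and in the spermatocyte markers Sycp1, Sycp3, Hormad1 and Tex101, Id4 was at 47.7 in 102 Plzf +/+ cells and 92.6 in 126 Plzf lu/lu cells. For the other clusters Id4 is given over both genotypes only, so this split does not set cluster 2 apart from them. These levels are descriptions, with no test.

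Markers of other stages were set beside Id4 at equal depth in Plzf +/+ cells. Id4 was found in 17 of 53 cells with T (brachyury), or 32.1% against 16.8% of cells without it. With Eomes the order changed with depth, from 2 of 20 cells (10%, against 17.9% without) at 2000 UMIs to 17 of 41 (41.5%, against 26.7%) at 4000. Id4 was found in 6 of 96 cells with Stra8, a gene that retinoic acid induces as spermatogonia differentiate, or 6.25% against 19.2% of cells without it. In Plzf lu/lu the Stra8 shares were 3.17% and 16.3%.

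The genes most alike to each member over the 834 Plzf +/+ cells at 2000 UMIs, among 4152 genes, had low correlations. For Id4 they were Nid1 (Pearson's r 0.19), Tagln2 (0.15) and Plk1s1 (0.14), against 0.13 for Gfra1. For Id3 they were Polr3a (0.14), Gm16238 (0.13) and Fam96b (0.13). For Id1 they were Tusc3 (0.18), Gm11966 (0.17) and Tmem9b (0.17), and for Id2 B2m (0.24), Cldn25 (0.22) and Rnf32 (0.19), but Id1 and Id2 were found in only 0.599% and 0.240% of these cells. The cells share libraries and a fixed depth, and the values are descriptions.

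The partners of ID proteins were present in both genotypes. Of the 3 E protein genes, 0 passed the genotype test, and their median log2 difference was 0.11, against 0.0035 over all genes tested, of which 0.816% passed. The same share stands beside the counts of the other lists in this comparison. Tcf12 was at 105 ± 7.76 CPM in Plzf +/+ (SD, n = 3) and 76.9 ± 10.7 in Plzf lu/lu (SD, n = 2), and Tcf3 at 69.3 ± 9.71 and 88.0 ± 16.4. Tcf12 passed as lower without the named clusters (15% of genes passed), without deep cells (5.02%) and after thinning to 2000 UMIs (4.63%). Of 15 tissue-restricted bHLH genes 9 could be tested and 0 passed (median 0.17). The highest of them were Sohlh1, a factor of spermatogonial differentiation, at 119 ± 34.7 and 135 ± 26.3, and Hes1, a Notch target, at 76.2 ± 25.2 and 59.2 ± 26.8. Tcf15, named after its values were seen, was at 13.7 ± 3.95 and 38.6 ± 2.24 (adjusted p = 0.0860, edgeR).

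Among receptor and SMAD genes of BMP, activin and TGF-beta signaling, 0 of 7 receptors tested (median -0.33) and 0 of 7 SMADs tested (median -0.19) passed. These lists mix the branches, and the SMADs include the inhibitory Smad6 and Smad7. The type I receptor gene Bmpr1a was at 91.0 ± 8.32 in Plzf +/+ and 72.5 ± 0.0884 in Plzf lu/lu. Tgfbr1, a type I receptor of the TGF-beta branch, was at 28.9 ± 3.01 and 46.0 ± 8.19. Smad2, which acts in that branch, was at 105 ± 14.2 and 96.1 ± 17.6, and the shared partner Smad4 at 53.4 ± 1.79 and 49.5 ± 9.67. With no overlap between genotypes, 3 of 7 receptors (Acvr1b, Acvr2a and Bmpr1a) were lower in Plzf lu/lu and 1 (Tgfbr1) higher, and 3 of 7 SMADs (Smad1, Smad5 and Smad6) were lower and 1 (Smad3) higher, against the 16% and 18.5% of all genes. In the other lists 1 of 3 E protein genes was lower (Tcf12), 1 of 9 bHLH genes was lower (Neurog3) and 1 higher (Tcf15), 2 of 3 ligands and antagonists were lower (Bambi and Fst) and 1 higher (Bmp7), and of 9 further genes 2 were lower (Etv5 and Lhx1) and 3 higher (Egr1, Klf4 and Msx2). Acvr1b and Smad6 are described because of their values. Acvr1b, an activin receptor, was at 11.4 ± 1.37 and 2.81 ± 1.72 (-2.55, adjusted p = 0.0972, edgeR), and the inhibitory Smad6 at 20.1, 23.4 and 21.5 against 7.97 and 4.02 (-1.57, adjusted p = 0.108, edgeR). Each passed in 4 alternatives, those in which Id3 passed, where 2.27% to 15% of genes did. Bmpr1a passed as lower without the named clusters (15% of genes passed) and after thinning to 2000 UMIs (4.63%). Tgfbr1 passed as higher without the named clusters. Of 12 ligands and antagonists 3 could be tested (median -0.54) and 1 fell. This was Fst, which encodes the activin antagonist follistatin, at 156, 141 and 138 CPM in Plzf +/+ and 69.3 and 44.2 in Plzf lu/lu, with no overlap (-1.23 ± 0.20 SE, adjusted p = 0.0423, edgeR). The Fst call was lost in 4 of 5 fits with 1 library left out, each but that without Plzf +/+ plate 1 (adjusted p from 0.141 to 0.344, edgeR).

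Among 10 further genes that answer to BMP or are controlled alongside Id genes, 9 could be tested (median 0.29) and Lhx1 fell. Lhx1, a GDNF-responsive LIM homeobox gene, was at 97.8, 86.3 and 88.7 CPM in Plzf +/+ and 21.1 and 8.04 in Plzf lu/lu (-2.30 ± 0.28 SE, adjusted p = 0.0186, edgeR). The Lhx1 call was lost in the same 4 fits (adjusted p from 0.0591 to 0.344, edgeR). With Gfra1 against without in Plzf +/+, Bcl6b (1.3), Egr1 (0.67) and Lhx1 (1.20) rose on the log2 scale, 3 of 5 tested, against 3.68% of all genes. With all UMIs summed Egr1 and Lhx1 passed, Bcl6b did not (adjusted p = 0.0576, edgeR) and Etv5 did (1.02, adjusted p = 0.0446, edgeR). With 1 library left out, the Lhx1 call was lost without Plzf +/+ plate 2, that of Egr1 without Plzf +/+ plate 1 or 2, and that of Bcl6b without any of the Plzf +/+ libraries. Over all settings Bcl6b ran from 0.27 to 1.45 (past the test in 7 of 17), Egr1 from 0.02 to 0.81 (8 of 18) and Lhx1 from 0.39 to 2.05 (15 of 18). Egr1 (1.36) and Etv5 (2.01) rose in Plzf lu/lu, 2 of 5 tested, against 0.827% of all genes. Both calls were lost with all UMIs summed (Egr1 1.05, adjusted p = 0.133, edgeR, and Etv5 1.16, adjusted p = 0.531, edgeR) and without Plzf lu/lu plate 3. Over all settings, 11 of 18 past the test for each, Etv5 ran from 0.87 to 2.07 and Egr1 from -0.49 to 2.13, its sign turning at 1000 UMIs. The median of the list was 0.67 in Plzf +/+, against -0.0041 over all 6529 genes tested.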

How the data were processed

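RNA of single cells sorted into plates was read at the 3′ end. Per the labels, the authors demultiplexed with bcl2fastq 2.18.0.12 and used Picard 2.9.3 and STAR 2.5.4a on GRCm38. The deposited values are raw UMI counts per gene and cell in a Plzf +/+ and a Plzf lu/lu table, with no normalization. Cells were assigned to 5 libraries by the ending of their names, and genotype by table. UMIs were summed per library and tested with edgeR 4.0.16 (R 4.3.3; filterByExpr, TMM, robust quasi-likelihood, Benjamini-Hochberg over all genes, threshold 0.05). The study fitted cells as replicates, which was not done here. The SE is the log2 fold change divided by the square root of F. DESeq2 1.42.0 was an alternative. Thinning to 2000 UMIs drew without replacement. Clusters came from scanpy 1.11.5 (2000 variable genes, 20 components, 15 neighbors, resolution 0.5). No doublet caller was run. A cluster led by B2m and Ly6e was left unnamed by hand. Fits were tested on simulated data. Alternatives changed normalization, filter, depth, draw, cells, libraries and the block. Libraries held 254514 to 2608702 UMIs, and intervals cover counting error only. Named pathway genes were those past a test, else the 2 of highest mean level in their list. For likeness, genes in at least 10% of cells were ranked by Pearson's r of log2(UMIs + 1), library means subtracted. The members and lists were chosen with earlier results of these data known.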

Additional observations from a re-analysis of the deposited data

How the results depend on the processing

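Over all cells, the genotype difference of Id3 was negative in every alternative. In that comparison it passed the test only with no filter (-1.86), without the named clusters (-2.17), without deep cells (-1.95) and without Plzf +/+ plate 1, and leaving out 1 library gave -8.34 to -1.51, the lowest without Plzf lu/lu plate 3, where the remaining library has 0 UMIs and the fitted value is no bound. Of all genes, 112 were called in the reported test, 583 with no filter, 1732 without the named clusters, 671 without deep cells, 413 after thinning, 50 in cells with Dazl, 1387 without Plzf +/+ plate 1, 1 each without Plzf +/+ plate 2, Plzf +/+ plate 4 or Plzf lu/lu plate 3, and 6 without Plzf lu/lu plate 4. Id2 turned to -0.015 with DESeq2 and ranged from -6.08 to 0.63 with 1 library left out. The lowest was again without Plzf lu/lu plate 3, where the remaining library has 0 UMIs and the fitted value is no bound. Id4 ranged from -0.27 to 0.10 with 1 library left out. The title numbers as a replicate block gave -2.30 for Id3 (adjusted p = 0.620, edgeR; 0 genes called of 13728). Deviations from the genotype means of same-numbered libraries had r of 0.089 and 0.024, and those of the libraries that share plate 4 had 0.135. With 2 Plzf lu/lu libraries their deviations mirror each other, so these r are tied and cannot show whether same-numbered libraries share more than a number. limma voom with plate as a random block could not be fitted.

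For Id4 with against without Gfra1, Plzf +/+ gave 1.10 at 4000 UMIs, 1.45 with all UMIs and 1.31 with seed 2, each past the test, and 0.54 to 0.74 with 1 library left out. Plzf lu/lu gave -0.19 with seed 2. The difference between the genotypes turned to -0.014 with no filter, -0.0098 with no replicate block, -0.083 at 1000 UMIs, -1.05 at 4000 UMIs, -0.96 with all UMIs, -1.50 with seed 2, -0.26 with all UMIs summed and -0.29 as the median of 20 draws, and ran from -0.060 to 0.50 with 1 library left out. The genotype difference of Id4 without Gfra1 turned to 0.16 at 1000 UMIs, 0.56 at 4000 UMIs, 0.83 with all UMIs, 0.64 with seed 2 and 0.0042 with all UMIs summed. The cause was not tested.

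Shares moved with depth. Id3 in Plzf +/+ was 2.45%, 9.28% and 12.1% at 1000, 4000 and all UMIs and 0.241% for at least 2 UMIs, and in Plzf lu/lu 2.71% with all UMIs. Id4 in Plzf +/+ was 9.39%, 27.7% and 37.3%, and 3.85% for at least 2 UMIs. In Plzf lu/lu it was 11%, 22.1% and 34.3%, 14.8% with seed 2 and 1.15% for at least 2 UMIs. The Id4 share of cells with Id3 less that without was 5.64 points at 4000 UMIs and 9.70 with all UMIs in Plzf +/+. In Plzf lu/lu it was -15.8 with seed 2, where 3 cells had Id3, and -14.8 without the named clusters. The Plzf lu/lu values rest on too few cells to be read. Depth limits Id1 and Id2, whose shares at 2000 UMIs rest on 8 and 9 cells.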
